A study of Mus musculus with 12 samples.

Results

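The TOX family was followed by gene symbol through the count matrix of 12 RNA sequencing libraries of mouse CD4+ T cells. It has 4 members, Tox, Tox2, Tox3 and Tox4, among 43626 genes in the matrix. The members were chosen by symbol, and the family was selected on the measured rise of Tox with an Eomes reporter in these same libraries, so the reporter difference of Tox is given as a description with no test. Of the 4 members, 3 passed the filter on low counts that left 13238 genes for testing, and Tox3 did not.

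The donors of the cells carried 1 Eomes allele that expresses green fluorescent protein (GFP) and 1 conditional (flox) allele. Both donor genotypes, the controls included, thus have a reporter in place on 1 Eomes allele. Donors with no cre are called Het. Donors with Lck-cre, driven by a T cell promoter, are called KO. Naive CD4+ T cells (CD45RBhi CD25-) from donor spleens were transferred into adult male Rag2-/- mice, which lack lymphocytes of the T and B lineages but keep myeloid and natural killer cells. After 3 weeks, GFP+ and GFP- cells were sorted from the spleens of 6 recipients. The sorts are written GFP+ (reporter positive) and GFP- (reporter negative), and each sort of each genotype has 3 libraries. Equal replicate numbers within a genotype mark a single recipient. The age of the donors is not given in the labels.

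TOX proteins are nuclear proteins that share a single HMG-box, a fold that binds and bends DNA. TOX is best known for its need in the development of CD4+ T cells in the thymus and for its high level in CD8+ T cells under lasting antigen stimulation, where calcineurin and NFAT switch it on. TOX2 is known from follicular helper T cells and natural killer cells, TOX3 from neurons and mammary epithelium, and TOX4 is a widely expressed partner of a nuclear phosphatase complex. EOMES is a T-box transcription factor of cytotoxic and memory T cells.

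The coding stretch in which the 4 members are most alike, 90 bases at the start of the HMG-box region, is shown because reads from near-identical stretches could be assigned to the wrong member. Capitals mark bases that differ from Tox. The stretches were read from GENCODE M21 transcripts of GRCm38 (mm10), on the coding strand. The Tox stretch lies at chr4:6722222-6722311 (minus strand, exon 5), that of Tox2 at chr2:163315849-163315938 (plus strand, exon 5), that of Tox3 at chr8:90254359-90254448 (minus strand, exon 5) and that of Tox4 at chr14:52287358-52287447 (plus strand, exon 6).
Tox: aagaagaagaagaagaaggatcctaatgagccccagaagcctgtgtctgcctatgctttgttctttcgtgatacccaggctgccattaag
Tox2: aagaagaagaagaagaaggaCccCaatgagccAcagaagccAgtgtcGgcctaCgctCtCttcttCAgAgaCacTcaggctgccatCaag
Tox3: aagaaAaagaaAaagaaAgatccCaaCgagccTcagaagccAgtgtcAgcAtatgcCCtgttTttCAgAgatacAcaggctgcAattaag
Tox4: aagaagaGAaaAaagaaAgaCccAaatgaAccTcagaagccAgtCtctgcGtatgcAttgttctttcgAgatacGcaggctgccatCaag

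Within this stretch, Tox2 was identical to Tox at 76 of 90 bases (84.4%), Tox4 at 75 (83.3%) and Tox3 at 73 (81.1%). Over all annotated transcripts of any 2 members, the longest identical run was 24 bases, between Tox and Tox3. For Tox and Tox2 it was 20 bases, and for Tox and Tox4 it was 19 bases. Longer identical runs between members were not found in these transcripts.

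Total counts ran from 11492908 to 18167236 in GFP- and from 2116894 to 8608902 in GFP+ libraries. The GFP- libraries came from 645000 to 2100000 sorted cells and the GFP+ libraries from 18000 to 117000. Every GFP+ library thus had fewer cells and counts than every GFP- one. The part of this in the reporter differences below was not tested. In Het GFP+ replicate 2 and KO GFP+ replicate 2, the 4 features that exceed 5% of a library took 58.3% and 54.3% of the counts, against 16.3% to 30.9% in the other libraries. Markers of CD4+ T cells were present in every library. The summed level of 10 CD4 T cell markers was 2219 to 3672 CPM (counts per 1000000, with library sizes scaled by TMM), and that of Cd8a and Cd8b1 was at most 4.57. The CD4 T cell sum was lower in the GFP+ than in the GFP- library of 6 of 6 recipients, at 2870 to 3672 CPM in Het GFP-, 2279 to 2430 in Het GFP+, 3119 to 3526 in KO GFP- and 2219 to 2804 in KO GFP+ libraries. Cd4, Cd3d, Cd3g, Trbc2, Cd5 and Cd28 were each lower in 6 of 6. The other markers of this list were mixed: Cd3e was higher in the GFP+ library of 5 of 6 recipients, Trbc1 and Lck of 3, and Trac of 1. Myeloid markers were also present. Each of the 12 myeloid markers, Lyz2, S100a8 and S100a9 among them, was higher in the GFP+ than in the GFP- library of 6 of 6 recipients. Their summed level was 192 to 1593 CPM in Het GFP-, 479 to 3726 in Het GFP+, 45.5 to 623 in KO GFP- and 294 to 1273 in KO GFP+ libraries. The highest myeloid sum in Het GFP+ libraries thus exceeded every CD4 T cell sum of that group. The 6 erythroid markers were likewise higher in 6 of 6 recipients (4.02 to 208 CPM summed). The sums of 10 natural killer and innate lymphoid markers (35.3 to 136 CPM), mostly Il1rl1, overlapped between groups. Within this list, Tyrobp and Fcer1g were higher in the GFP+ library of 6 of 6 recipients, Klrb1c and Klrb1b of 0. The rest were mixed, higher in 1 to 4. The 6 thymocyte markers summed to 10.4 to 17.0 CPM, mostly Cd1d1, with Rag1 and Ptcra at 9 and 5 counts over all libraries. The 6 B cell markers summed to 3.19 to 20.7 CPM, mostly Ighm, with Ms4a1 and Pax5 at 3 and 2 counts over all libraries. The part of these marker differences in the reporter differences below was not tested.

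Eomes, the targeted gene, followed the sort in every recipient. Its level was 9.19, 3.68 and 2.16 CPM in the Het GFP- and 115, 123 and 89.8 CPM in the Het GFP+ libraries of replicates 1, 2 and 3. In KO cells it was 4.73, 1.95 and 2.19 CPM in the GFP- and 46.6, 45.7 and 31.6 CPM in the GFP+ libraries. All 3 KO GFP+ values lay below all 3 Het GFP+ values, a pattern shared by 4.22% of tested genes. The genotype difference (log2 fold change 1.41, SE 0.43, FDR 0.421, edgeR) did not pass. The authors' deposited table lists Eomes in this comparison with a log2 fold change of -1.20 (SE 0.246) and an adjusted p of 0.000704. It is named as Het against KO, but 0% of its genes tested here had the sign of the Het minus KO fit. Its values are thus read here as KO minus Het. Which part of the flox allele cre removes is not given in the sources used here, so a count over the whole gene checks the genotype only in part.

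Tox (ENSMUSG00000041272.7) lies at chr4:6686353-6991557 on the minus strand, and its counted exons span 7609 bases. Its level was 11, 3.74 and 4.82 CPM in Het GFP- replicates 1, 2 and 3 and 172, 68.3 and 202 CPM in Het GFP+ replicates 1, 2 and 3. In KO cells it was 14.1, 16.5 and 7.40 CPM in the GFP- and 33.4, 52.8 and 40.7 CPM in the GFP+ libraries. All GFP+ libraries thus lay above all GFP- ones, and the 3 Het GFP+ libraries lay above the 3 KO GFP+ ones. Means with SD over 3 libraries were 6.52 ± 3.92, 12.7 ± 4.73, 42.3 ± 9.83 and 147 ± 70.0 CPM in Het GFP-, KO GFP-, KO GFP+ and Het GFP+ cells. In that order, only the Het GFP- and KO GFP- neighbours overlapped. The lowest of the 12 values rests on 55 counts and the highest on 2071. In bulk RNA, more cells with the gene and more RNA per cell cannot be told apart.

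**Figure D1:**
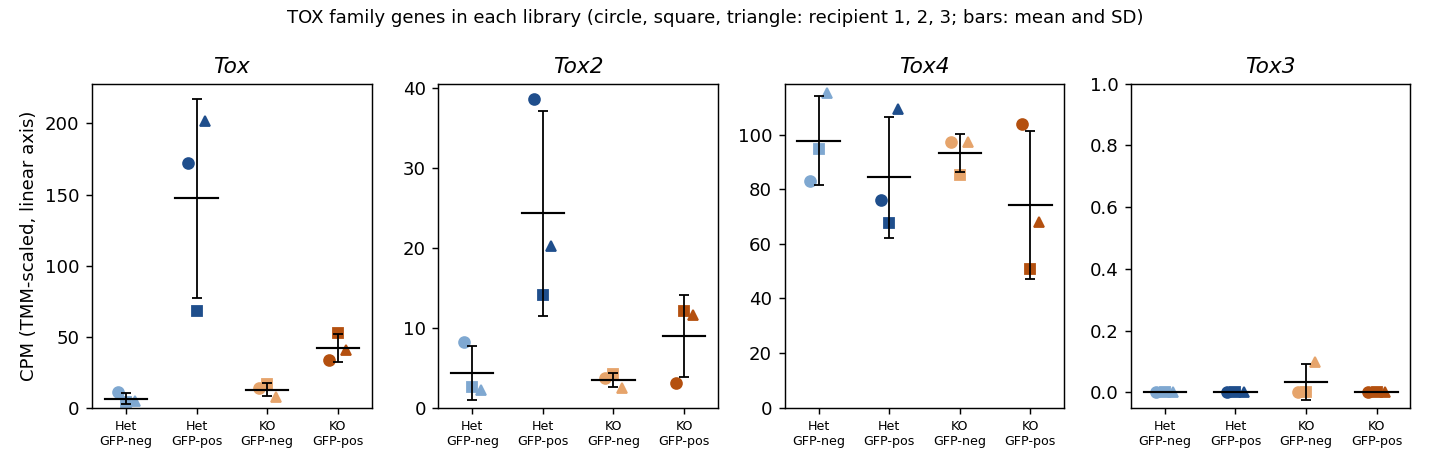
Level of Tox, Tox2, Tox4 and Tox3 (CPM, linear axes that differ between panels) in each of the 12 libraries, with circle, square and triangle for replicates 1, 2 and 3, and the mean and SD over 3 libraries in black. Tox runs from 3.74 to 202 CPM, Tox2 from 2.21 to 38.7 CPM, Tox4 stays between 50.7 and 115 CPM, and Tox3 is at 0 in 11 libraries.

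Within recipients, the GFP+ level of Tox was 15.6, 18.2 and 41.8 times the GFP- level in Het recipients 1, 2 and 3. In KO recipients 1, 2 and 3 the ratios were 2.37, 3.19 and 5.49. The lowest Het ratio was above the highest KO ratio. The fitted reporter difference of Tox was 4.51 (log2, SE 0.51) in Het and 1.71 (SE 0.46) in KO cells, a gap of 2.80 (SE 0.65) between genotypes. These are descriptions, since this rise chose the family. With each library left out in turn, the Het value ran from 4.25 to 5.10, the KO value from 1.46 to 1.96 and the gap from 2.52 to 3.37. For scale, 12.7% of tested genes in Het and 9.52% in KO cells were higher in all 3 GFP+ than in all 3 GFP- libraries, 17.7% of tested genes were higher in the GFP+ library of all 6 recipients, and 5.2% had all 3 Het within-recipient differences above all 3 KO ones. The authors' deposited tables list Tox in both reporter comparisons, with a log2 fold change of 3.77 (SE 0.388) in Het and 1.44 (SE 0.298) in KO cells.

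**Figure D2:**
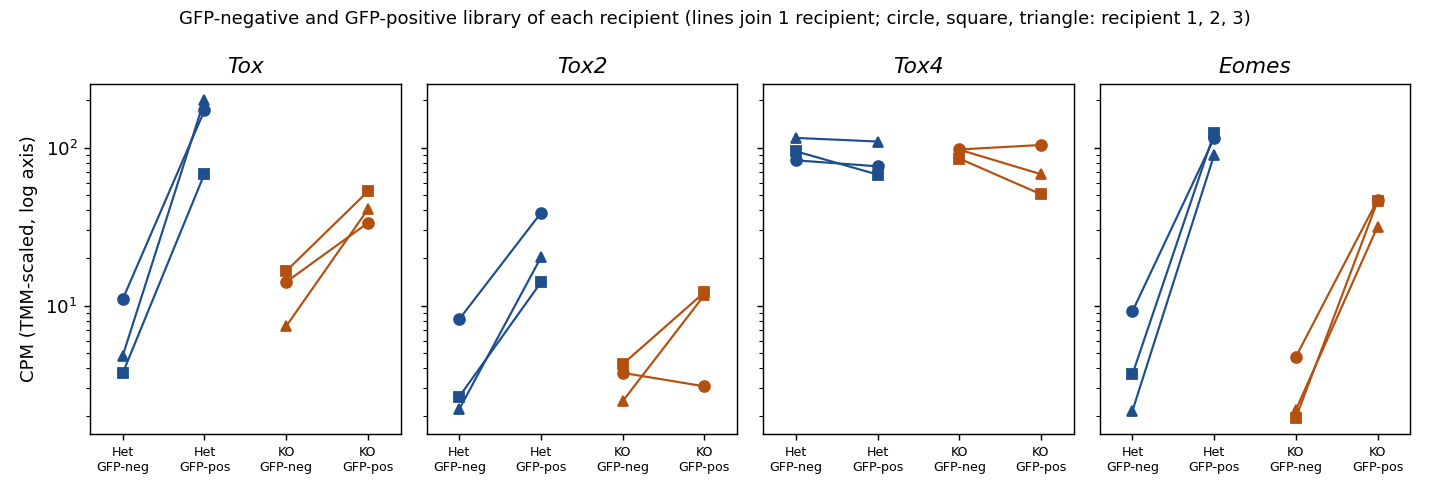
GFP- and GFP+ level (CPM, log axis) of Tox, Tox2, Tox4 and Eomes, with 1 line per recipient, Het in blue and KO in orange, and circle, square and triangle for recipients 1, 2 and 3. The Tox lines climb more steeply in Het (15.6 to 41.8 times) than in KO recipients (2.37 to 5.49 times), whereas the Eomes lines climb 12.5 to 41.7 times in Het and 9.87 to 23.5 times in KO recipients.

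Between genotypes, Tox in GFP+ cells had a log2 fold change of 1.84 (SE 0.46, Het minus KO), with all 3 Het libraries above all 3 KO libraries. It did not pass edgeR's test (FDR 0.277), in which 0.106% of genes were called. It passed with DESeq2 (1.79, FDR 0.0201, 0.717% of genes called) and with no filter on low counts (1.83, FDR 0.0180). The FDR ran from 0.0180 to 0.643 over the 18 alternatives tried, of which these 2 passed. The exact two-sided permutation test gave p = 0.1 (0.333 adjusted over 10 tests), the smallest that 3 against 3 allows, and 4.22% of tested genes were higher in Het cells with no overlap. The authors' deposited table for this comparison lists Tox among 77 genes. Its log2 fold change there is -1.34 (SE 0.31, read as KO minus Het, as for Eomes) and its adjusted p is 0.00538. The Het GFP+ libraries of this comparison are among those in which Tox was chosen. The FDRs and p-values given here are thus descriptions and give no independent support for a genotype difference.

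In GFP- cells the direction was the other way, with no call. The Tox log2 fold change, Het minus KO, was -0.96 (SE 0.46, FDR 0.947, edgeR), and 1 Het library, replicate 1 with 11 CPM, lay within the KO range of 7.40 to 16.5 CPM. The exact two-sided permutation test gave p = 0.2 (0.5 adjusted over 10 tests). None of the 13238 genes (0%) was called in this comparison by edgeR, 695 had an unadjusted p under 0.05, and 0.34% of genes were called by DESeq2. The 95% interval of the Tox difference ran from -1.97 to 0.04. The GFP- libraries are the low side of the rise on which Tox was chosen. The FDR, p-value and interval of Tox in GFP- cells are thus descriptions too and give no independent support.

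**Figure D3:**
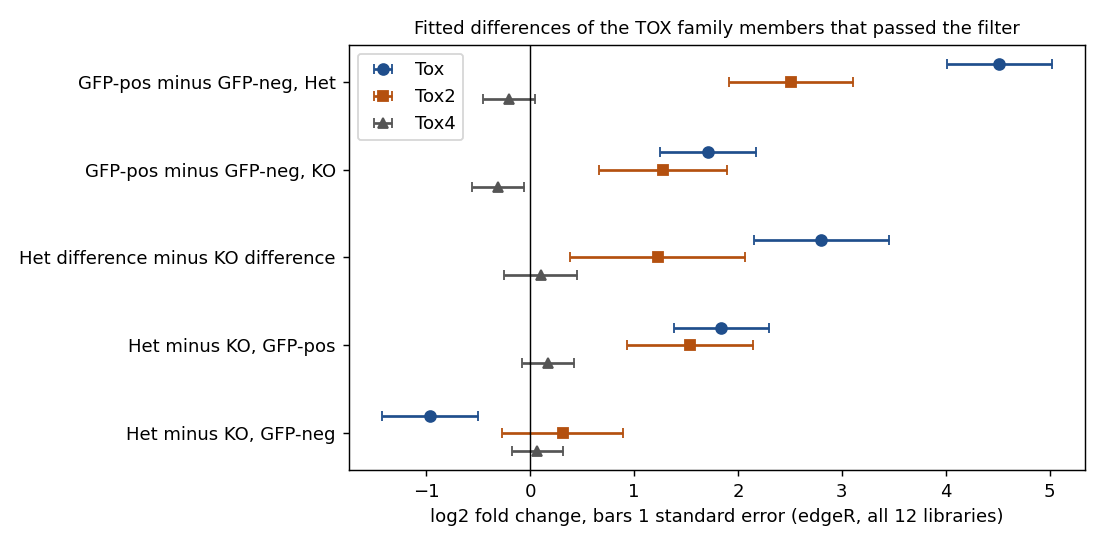
Fitted log2 fold changes of Tox, Tox2 and Tox4 in the 5 comparisons, with bars of 1 standard error (edgeR, all 12 libraries). The reporter differences are 4.51 in Het and 1.71 in KO cells for Tox and 2.51 and 1.28 for Tox2, the values in GFP- cells between genotypes are -0.96 for Tox and 0.31 for Tox2, and the Tox4 values lie between -0.31 and 0.17.

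Tox2 (ENSMUSG00000074607.7), the member most like Tox in the stretch shown above, lies at chr2:163203125-163324170 on the plus strand with 3401 exon bases. It was measured at 8.21, 2.66 and 2.21 CPM in Het GFP- replicates 1, 2 and 3 and at 38.7, 14.0 and 20.2 CPM in Het GFP+ ones. In KO cells it was at 3.75, 4.26 and 2.48 CPM in the GFP- and at 3.08, 12.1 and 11.7 CPM in the GFP+ libraries. The Het groups did not overlap, while the KO groups did, because KO GFP+ replicate 1 lay among the GFP- values. The counts behind these values were 17 to 290 per library, with the 17 in KO GFP+ replicate 2.

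Tox2 rose with the reporter in Het cells (log2 fold change 2.51, SE 0.60, FDR 0.0408, edgeR). In that comparison 3.45% of tested genes were called, 1.82% as higher, and the 12.7% given above had Het groups that did not overlap. Within Het recipients 1, 2 and 3 the GFP+ level was 4.71, 5.29 and 9.15 times the GFP- one. The call held with the recipient as a block (2.60, SE 0.38, FDR 0.00108, 22.2% of genes called) and with DESeq2 (FDR 0.00104, 9.22% of genes called), and the authors' deposited table lists Tox2 with a log2 fold change of 1.99 (SE 0.429). It was lost without Het GFP- replicate 2 (FDR 0.191) or 3 (0.0877), without Het GFP+ replicate 1 (0.119), 2 (0.0549) or 3 (0.0555), without KO GFP- replicate 1 (0.0597) or 3 (0.0519), and without KO GFP+ replicate 3 (0.051). In all, 9 of 19 alternatives kept the call, and all 19 kept the direction (1.99 to 3.34).

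In KO cells the Tox2 difference was 1.28 (SE 0.61, FDR 0.297, edgeR), with recipient ratios of 0.822, 2.85 and 4.70. The share of genes called there was 0.128%. With the recipient as a block it was 1.22 (FDR 0.0644), and without KO GFP+ replicate 1, the library in which it did not exceed its GFP- partner, it was 1.77 (FDR 0.0605). The test of the difference between genotypes gave 1.23 (SE 0.84, FDR 1.00, edgeR), so a larger rise in Het than in KO cells was not shown for Tox2. Without KO GFP+ replicate 1 that value was 0.75. Over the 6 recipients together, Tox2 was higher in the GFP+ library of 5, with a mean log2 difference of 1.75 ± 1.09 (SD, n = 6) and an exact two-sided sign-flip permutation p of 0.0625 (0.0938 adjusted over 2 tests; the smallest possible is 0.0312). Between genotypes, Tox2 had a log2 fold change of 1.54 in GFP+ cells (SE 0.60, FDR 0.675), with the 3 Het libraries above the 3 KO libraries, and of 0.31 in GFP- cells (SE 0.59, FDR 1.00). In GFP+ cells, 4.22% of tested genes were higher in Het cells with no overlap. The exact two-sided permutation test of Tox2 there gave p = 0.1 (0.333 adjusted over 10 tests), the smallest that 3 against 3 allows.

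Tox4 (ENSMUSG00000016831.11), at chr14:52279146-52296391 on the plus strand with 6940 exon bases, had the highest level per exon base of the members in GFP- cells. It was at 83.1, 94.8 and 115 CPM in Het GFP-, 76.1, 67.5 and 109 CPM in Het GFP+, 97.3, 85.3 and 97.1 CPM in KO GFP- and 104, 50.7 and 67.9 CPM in KO GFP+ replicates 1, 2 and 3. All 4 groups overlapped. The reporter difference was -0.21 in Het (95% interval -0.75 to 0.33, FDR 0.642, edgeR) and -0.31 in KO cells (95% interval -0.85 to 0.24, FDR 0.5). Tox4 was lower in the GFP+ library of 5 of 6 recipients, with a mean log2 difference of -0.31 ± 0.32 (SD, n = 6; exact two-sided sign-flip permutation p = 0.0938, the same after adjustment). The genotype differences were 0.17 (95% interval -0.38 to 0.72) in GFP+ and 0.07 (-0.47 to 0.60) in GFP- cells. No alternative gave Tox4 a call in any comparison. Genes of the opposite strand share 1106 (Mettl3) and 195 (Rab2b) of its 6940 exon bases, and the strand setting of the counting is not given in the sources used here, so reads there may be assigned to either gene.

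Tox3 (ENSMUSG00000043668.9), at chr8:90247040-90348343 on the minus strand with 3356 exon bases, was too low to read. It had 2 counts in KO GFP- replicate 3 (0.0993 CPM) and 0 counts in the other 11 libraries. A count of 0 allows up to 3 counts, which is 0.170 to 2.14 CPM in the 11 libraries at 0, depending on their depth. Levels up to that limit could thus go unseen in these libraries. This limit covers counting error only.

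Per kilobase of exon, the order of the member means differed between the sorts in Het but not in KO cells. In Het GFP- cells the level was 14.1 ± 2.34 CPM per kb for Tox4, 1.28 ± 0.983 for Tox2 and 0.857 ± 0.515 for Tox. In Het GFP+ cells it was 19.4 ± 9.20 for Tox, 12.1 ± 3.18 for Tox4 and 7.15 ± 3.77 for Tox2. In KO cells Tox4 came first in both sorts, with 13.4 ± 0.992 in GFP- and 10.7 ± 3.91 CPM per kb in GFP+ cells. Tox reached 1.67 ± 0.622 and 5.56 ± 1.29 and Tox2 1.03 ± 0.269 and 2.63 ± 1.5 CPM per kb in those KO groups. The SDs of Tox and Tox4 overlap in Het GFP+ cells, so which of them was higher there is not settled by 3 libraries. The same holds for Tox and Tox2 in Het GFP- cells.

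Since the cells were sorted on an allele of a T-box factor, the letters AGGTGTG (and their reverse complement CACACCT), the core of a T-box motif, were searched on both strands in the RefSeq promoter windows of GRCm38.p6, from 250 bases before to 50 after each start site. Of all 32851 windows, 1920 (5.845%) hold them. Of 5 windows of Tox2, 1 holds a match, as does the window of Tox4, and that of Tox3 has none. The match with 30 bases on each side is printed in capitals for Tox2 (chr2:163203204-163203270, plus strand, 49 bases before a start site) and Tox4 (chr14:52278951-52279017, plus strand, 165 bases before the start site), a member that rose with the reporter in Het cells and one without a call.
Tox2: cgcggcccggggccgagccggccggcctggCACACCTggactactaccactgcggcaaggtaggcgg
Tox4: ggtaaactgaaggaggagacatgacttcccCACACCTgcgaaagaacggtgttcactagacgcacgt
Both members hold the same letters, which describes the sequence only. The Tox2 match lies inside the gene span given above, which starts at chr2:163203125. The window that covers this first base, chr2:163202877-163203176, holds no match. No window of Tox was used here.

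Of the genes around Tox on chromosome 4, the nearest tested gene is Nsmaf (ENSMUSG00000028245.11, chr4:6396207-6454271, 232 kb away), an adaptor of the TNF receptor. It rose with the reporter in Het cells, from 257, 194 and 221 CPM in GFP- to 508, 340 and 381 CPM in GFP+ replicates 1, 2 and 3 (log2 fold change 0.87, SE 0.17, FDR 0.0203, edgeR). In KO cells it was at 237, 243 and 237 CPM in GFP- and at 300.2, 299.8 and 309 CPM in GFP+ libraries (0.34, SE 0.17, FDR 0.316). In both genotypes the GFP+ values lay above the GFP- ones, as for 12.7% of tested genes in Het and 9.52% in KO cells. The Het call was lost without Het GFP- replicate 2 (FDR 0.115), without Het GFP+ replicate 1 (0.0633), and with only the groups compared in the fit (0.0586). The test of the difference between genotypes gave 0.53 (SE 0.24, FDR 1.00). On the other side, Rab2a (1544 kb away), a GTPase of membrane traffic, had a log2 fold change of -0.83 in Het cells (SE 0.26, FDR 0.1). With the recipient as a block Rab2a fell in both Het (-0.83, FDR 0.00558) and KO cells (-0.73, FDR 0.0183). The antisense gene Gm11802, which shares 260 exon bases with Tox, had 0 or 1 counts per library.

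**Figure D4:**
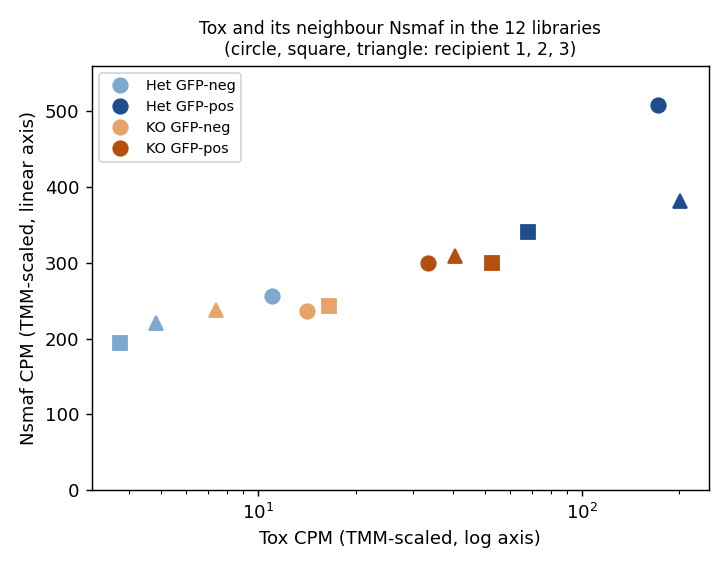
Level of Nsmaf (CPM, linear axis from 0) against that of Tox (CPM, log axis) in the 12 libraries, coloured by group, with circle, square and triangle for replicates 1, 2 and 3. Nsmaf lies between 194 and 257 CPM in GFP- libraries, at 299.8 to 309 CPM in KO GFP+ and at 340 to 508 CPM in Het GFP+ libraries.

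Over the 12 libraries, the 8 genes whose log2 CPM followed Tox most closely by Pearson's r were Kcnip3 (0.951), Slc45a4 (0.945), Nsmaf (0.944), Cd27 (0.941), Hhat (0.932), Slfn10-ps (0.929), Coq8a (0.926) and Mcu (0.925), of 13237 compared. These points share the libraries, their depth and the 4 groups, and the measure is a description. By Spearman's rho, 3 of these 8 were again among the first 8. Eomes ranked 27th with r = 0.903 and Tox2 47th with r = 0.889, while Tox4 had r = -0.369. Cd27, a costimulatory receptor of the TNF receptor family, had means of 8.10 CPM in Het GFP-, 63.2 in Het GFP+, 14.9 in KO GFP- and 27.7 in KO GFP+ cells. The order of these 4 means is that of the Tox means. Cd27 was picked by its likeness to Tox in these same libraries, so this order is no separate finding. The other genes named as most like Tox had it too, except Mcu.

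Among 10 surface receptors linked to TOX in T cells under lasting stimulation, 4 rose and 0 fell with the reporter in Het cells, with a list median of 1.11 (log2) against -0.02 over all tested genes. As given above, 3.45% of all tested genes were called in this comparison, 1.82% as higher. Pdcd1, which encodes the inhibitory receptor PD-1, went from 22.3 ± 3.52 to 89.4 ± 35.6 CPM (log2 fold change 2.01, FDR 0.00818, edgeR), and it was called in each of 19 alternatives. Lag3, an inhibitory receptor for MHC class II, went from 11.7 ± 7.24 to 61.8 ± 21 CPM (2.42, FDR 0.0219). Cd244a, a receptor of the SLAM family, went from 3.68 ± 1.61 to 11.1 ± 2.31 CPM (1.58, FDR 0.0341), and Entpd1, the ectonucleotidase CD39, from 32.9 ± 2.70 to 85.1 ± 22.1 CPM (1.38, FDR 0.0453). Lag3 was not called without Het GFP- replicate 2 (FDR 0.0664) or 3 (0.0516) or Het GFP+ replicate 3 (0.0526). Cd244a was not called without Het GFP- replicate 1 (FDR 0.101) or 2 (0.169), Het GFP+ replicate 1 (0.102) or 2 (0.0814), KO GFP- replicate 3 (0.0525) or KO GFP+ replicate 3 (0.051). Entpd1 was not called without any 1 of the 6 Het libraries (FDR 0.0604 to 0.147), KO GFP- replicate 1 (0.0636) or 3 (0.0501) or KO GFP+ replicate 3 (0.0674). The count of 4 became 1 without Het GFP- replicate 2, and 2 without Het GFP- replicate 3, Het GFP+ replicate 1 or 3, KO GFP- replicate 3 or KO GFP+ replicate 3. With the recipient as a block 5 of 10 were called, Tigit as well (1.35, SE 0.25), where 12.8% of all tested genes were called as higher. The summed myeloid and erythroid markers were higher and the summed CD4 T cell markers lower in the same GFP+ libraries, as given above. The part of these markers in the receptor differences was not tested.

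None of the 10 receptors was called by edgeR in the other 4 comparisons. DESeq2 called 1 of them for Het minus KO in GFP+ cells, where 5 had an unadjusted edgeR p under 0.05, and 0 in the other 3, where 1 or 2 did. Over all tested genes, 6.22% had such a p for Het minus KO in GFP+ cells. The shares were 17.5% with the reporter in KO cells, 5.25% for Het minus KO in GFP- cells and 1.99% for the difference between genotypes. In GFP+ cells edgeR called 0.106% and DESeq2 0.717% of genes between genotypes. The median difference of the 10 receptors was 0.19 with the reporter in KO cells, 0.80 for Het minus KO in GFP+ cells and -0.40 in GFP- cells. In KO cells, Pdcd1 was at 33.4 ± 3.82 CPM in GFP- and 38.7 ± 17.9 CPM in GFP+ libraries, and Entpd1 at 60.1 ± 21.6 and 52.6 ± 23.9 CPM. The test of the difference between genotypes gave 1.87 for Pdcd1 (SE 0.46, FDR 1.00, edgeR) and 1.53 for Entpd1 (SE 0.47, FDR 1.00). In that test 0.00755% of genes were called by edgeR. With the recipient as a block, the same difference was 1.87 for Pdcd1 (SE 0.35, FDR 0.110) and 1.57 for Entpd1 (SE 0.28, FDR 0.0838). Neither passed.

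**Figure D5:**
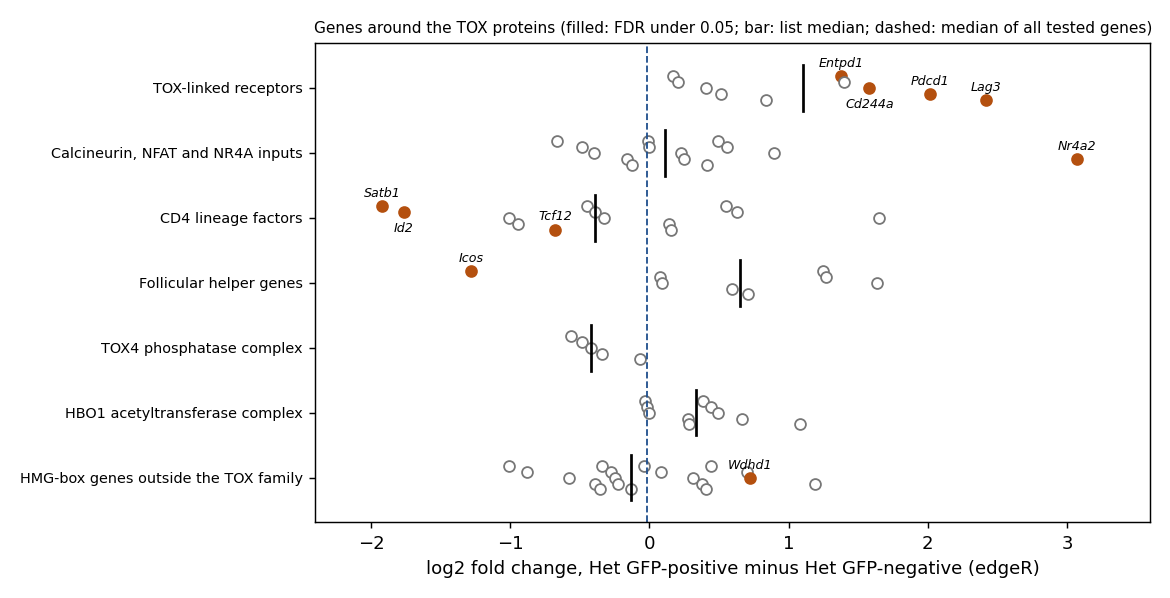
Log2 fold changes, Het GFP+ minus Het GFP- (edgeR), of the tested members of 7 gene lists, with filled points for FDR under 0.05, a black bar for the median of each list and a dashed line for the median of all tested genes (-0.02). The receptor list has its median at 1.11 with 4 called members, all higher, and the CD4 lineage list has 3 called members, all lower.

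Upstream of TOX, 14 genes of calcineurin, NFAT, NR4A and related factors were listed. In Het cells 1 of 14 rose and 0 fell, where 3.45% of all tested genes were called, and the median was 0.11. The one was Nr4a2, an orphan nuclear receptor, at 5.89 ± 3.57 CPM in GFP- and 49.3 ± 37.3 CPM in GFP+ cells (log2 fold change 3.07, SE 0.54, FDR 0.0119, edgeR), and it was called in each of 19 alternatives. In KO cells it was at 7.70 ± 1.06 and 30.7 ± 4.70 CPM (1.98, SE 0.53, FDR 0.172). With the recipient as a block, Nr4a2 and Nfatc1 rose and Nfatc3 fell in Het cells, and the same 3 with Egr2, which rose, were called in KO cells. These are 3 and 4 of 14, where the block called 22.2% of all tested genes in Het and 17.7% in KO cells. The calcineurin subunits Ppp3ca, Ppp3cb, Ppp3cc and Ppp3r1 were called in neither fit. Without KO GFP+ replicate 1 the count called in Het cells was 2. DESeq2 called Nr4a2 as higher and Nfatc3 as lower in Het cells, where it called 9.22% of all genes. In KO cells it called Nr4a2, where it called 404 genes in all. For Het minus KO in GFP+ cells it called Egr2 (-1.59, FDR 0.0335), where 0.717% of genes were called. The edgeR fit did not call Egr2 there (FDR 0.324).

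Of 13 factors of the CD4 lineage, 0 rose and 3 fell with the reporter in Het cells, with a list median of -0.39, where 1.63% of all tested genes fell. Satb1, a chromatin organizer of T cells, went from 556 ± 20.9 to 147 ± 32.7 CPM (log2 fold change -1.92, FDR 0.00128, edgeR), and it was called in each of 19 alternatives. Id2, an inhibitor of E proteins, went from 378 ± 50.9 to 111 ± 35.3 CPM (-1.77, FDR 0.0142), and Tcf12, an E protein, from 142 ± 7.41 to 88.7 ± 1.75 CPM (-0.68, FDR 0.0320). Id2 was not called without Het GFP- replicate 2 (FDR 0.0608) or Het GFP+ replicate 1 (0.0536) or 2 (0.0558). Tcf12 was not called without any 1 of the 6 Het libraries (FDR 0.0529 to 0.119) or KO GFP- replicate 1 (0.052). The count of 3 became 1 without Het GFP- replicate 2 or Het GFP+ replicate 1 or 2. With the recipient as a block, 3 rose (Myb, Tcf3, Runx3) and 5 fell (Satb1, Id2, Tcf12, Tcf7, Gata3) in Het cells, where 12.8% of all tested genes rose and 9.41% fell. In KO cells under that block, 2 rose (Myb, Runx1) and 4 fell (Satb1, Id2, Tcf7, Gata3), where 17.7% of all tested genes were called. Between the GFP- groups, Satb1 was at 556 ± 20.9 CPM in Het and 305 ± 45.5 CPM in KO cells. It was not called by edgeR (0.87, SE 0.21, FDR 0.457) but was by DESeq2 (0.86, SE 0.21, FDR 0.0173). DESeq2 called 2 of the 13 factors there, Satb1 and Lef1 (0.74, FDR 0.0395), and 0.34% of all genes.

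For Tox2, 10 genes of follicular helper T cells were listed, of which 8 were tested and Ascl2 and Pou2af1 were too low. The median was 0.65 in Het cells, with 0 called as higher and 1 as lower, where 3.45% of all tested genes were called. The one was Icos, a costimulatory receptor, at 197 ± 19.6 CPM in GFP- and 80.6 ± 38.7 CPM in GFP+ cells (-1.28, FDR 0.0470, edgeR). This call was lost without any 1 of 9 libraries, with FDRs of 0.0509 to 0.144: Het GFP- replicates 1, 2 and 3, Het GFP+ replicates 1 and 2, KO GFP- replicates 1, 2 and 3, and KO GFP+ replicate 3. Without KO GFP+ replicate 1 the count called was 2. DESeq2 called 2 of 8 in Het cells, Icos as lower and Slamf6 as higher (0.61, FDR 0.0445), where it called 9.22% of all genes. It also called Slamf6 for Het minus KO in GFP+ cells (0.88, FDR 0.0115), where 0.717% of genes were called. The edgeR fit did not call Slamf6 there (FDR 0.194). The block called Icos in both genotypes (-1.38 in Het and -1.03 in KO cells) and, in Het cells, called Sh2d1a, Slamf6 and Il6ra as higher. These are 4 of 8 in Het and 1 of 8 in KO cells, against 22.2% and 17.7% of all tested genes. Bcl6, the factor that defines these cells, was at 14.4 ± 1.86, 15.6 ± 3.91, 12.4 ± 1.78 and 27.1 ± 19.8 CPM in Het GFP-, Het GFP+, KO GFP- and KO GFP+ cells.

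In the lists of partners of TOX proteins and of other HMG-box genes, counts stand against 3.45% of all tested genes called in Het cells by edgeR and 9.22% by DESeq2, and against 22.2% in Het and 17.7% in KO cells with the block. An unadjusted edgeR p under 0.05 was found for 23.2% of all tested genes in Het cells. Of the 5 genes of the TOX4 phosphatase complex, 0 were called with the reporter in Het cells by edgeR or DESeq2 and 2 had an unadjusted p under 0.05 (median -0.42), and with the block 2 fell, Ppp1ca and Wdr82. In KO cells the block called Ppp1cb (FDR 0.0488) and Ppp1ca (FDR 0.0494) as lower. Of 10 genes of the HBO1 acetyltransferase complex, a partner of TOX, 0 were called by edgeR, 1 by DESeq2, and 3 had an unadjusted p under 0.05 (median 0.34). Its catalytic gene Kat7 was at 95.1 ± 10.9 CPM in GFP- and 94.7 ± 10.6 CPM in GFP+ Het cells. With the block, Brpf1, Jade2 and Brpf3 rose in Het cells, and Jade2 and Brpf3 in KO cells. Of 24 HMG-box genes outside the family, 19 were tested and 1 rose in Het cells, Wdhd1 (0.72, FDR 0.0451, edgeR), a DNA replication factor. The Wdhd1 call was lost without any 1 of the 6 Het or the 3 KO GFP- libraries (FDR 0.05 to 0.187). With the block, Wdhd1 and Cic rose and Tcf7, Hbp1 and Smarce1 fell in both genotypes. None of these 3 lists had a called member in the genotype comparisons or in KO cells in edgeR's fit without the block. That fit called at most 0.128% of all tested genes in those comparisons. DESeq2 called 1 member of these lists there, Lef1, between the GFP- groups as given above.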

How the data were processed

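Total RNA of sorted cells was extracted with TRI reagent, depleted of ribosomal RNA and made into libraries with a stranded kit, per the labels' protocols. The submitters' processing notes name bcl2fastq 1.8.4, TopHat2 2.0.13, featureCounts 1.5.0-p1, DESeq2 1.6.1 and mm10, with no role or order. The annotation was not given in the sources used here, nor was the strand setting. The authors deposited raw counts per gene, and exon lengths per the file headers. The authors' deposited tables of 3 comparisons hold a signal (mean normalized count), a log2 fold change with its standard error, a test score, and p-values. Only genes under an adjusted p of 0.05 are in them.

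Here the counts were tested with edgeR 4.0.16 (R 4.3.3): TMM scaling, filterByExpr (minimum count 10, minimum total 15), 1 mean per group over all 12 libraries, two-sided quasi-likelihood F-tests, Benjamini-Hochberg adjustment over all tested genes, and calls at FDR 0.05. The script was tested on simulated data. DESeq2 1.42.0 was an alternative, and single genes were compared by exact permutation tests on log2(CPM + 0.5). Same-numbered libraries of a genotype share a recipient, per the design text. Within such pairs, deviations from group means correlated at 0.569, 0.262 and 0.648 (Het) and 0.526, 0.538 and 0.262 (KO). Recipients are separate animals. The main fit treats the GFP+ and GFP- libraries of a recipient as independent, so its reporter p-values do not use the pairing. The block and the sign-flip test rest on the spread of within-recipient differences. Comparisons between genotypes rest on the spread between recipients. The libraries carry no molecular identifiers.

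The members, gene lists and tests were chosen with earlier results of these data known. Named are the members, Eomes, overlapping features, the nearest tested genes beside Tox, the 8 genes most like Tox and members of the 7 lists.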

Additional observations from a re-analysis of the deposited data

How the results depend on the processing

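Fits across all genes differed mainly in how many genes they called. In the Het reporter comparison (3.45% called), 9.22% were called by DESeq2, 3.79% with no filter and 22.2% with the recipient as a replicate block. In the KO reporter comparison (0.128%) the values were 3.11%, 0.849% and 17.7%, and 0.0804% with only the groups compared. For GFP+ cells between genotypes (0.106%) they were 0.717% by DESeq2, 0.304% with no filter and 0.0165% with only the groups compared. For GFP- cells (0%) they were 0.34%, 0.11% and 0.0539%. For the difference of differences (0.00755%) they were 0.0901% by DESeq2, 0.0253% with no filter, 0.0755% with the block and 0.0149% without dominant features. Without both libraries dominated by 4 features, an alternative chosen after seeing the data, the shares were 2.06% (Het reporter), 0.0216% (KO reporter), 0.0288% (GFP+ cells) and 0% (difference of differences).

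With each library left out in turn, the shares ran from 0.662% (without Het GFP- replicate 2) to 7.03% (without KO GFP+ replicate 1) in the Het reporter comparison. They ran from 0.0358% to 12.6% (without KO GFP+ replicate 1) in the KO one, from 0.0215% to 0.143% in GFP+ cells, from 0.00715% to 0.0527% in GFP- cells where any gene was called, and from 0% to 0.00754% for the difference of differences.

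For the members, the Het reporter value of Tox2 was 2.53 (FDR 0.0517) with only the groups compared, 2.76 (FDR 0.0608) without both dominated libraries, and 1.99 to 3.34 with 1 library left out. The genotype difference of Tox in GFP+ cells, a description for the reason given above, passed by DESeq2 (1.79) and with no filter (1.83). The cause of these shifts was not tested. The block changed no other call of a member, and the genotype comparisons lie between recipients, so no block applies there. Differences crossed 0 over the alternatives, with no call, for Tox2 in GFP- cells between genotypes (-0.53 to 0.60) and for Tox4 between genotypes in GFP+ cells (-0.07 to 0.46), in GFP- cells (-0.10 to 0.16) and in the difference of differences (-0.11 to 0.42). The lowest library had 17 counts of Tox2, and Tox3 had at most 2 counts in any library.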

Other observations

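Tox and Eomes did not keep one ratio across groups. Counts of Tox per count of Eomes were 1.2, 1.02 and 2.24 in Het GFP- replicates 1, 2 and 3 and 1.5, 0.554 and 2.24 in Het GFP+ ones. They were 2.98, 8.5 and 3.39 in KO GFP- and 0.715, 1.16 and 1.29 in KO GFP+ replicates. Each KO GFP- value thus lay above each of the other 9, with 32 to 58 Eomes counts behind it, and the ratio was not tested.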
